A study of Mus musculus with 14 samples.

Results

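The hippocampus and the cerebral cortex of C57BL/6 mice were compared in 8 bulk RNA libraries, 4 from each region, out of the 14 libraries of the series. The other 6 come from the cerebellum and serve here only to place genes on a further region. Each region had 2 libraries of CARIP-/- mice (knockout) and 2 of wild-type mice of the same strain. The libraries called cerebral cortex are titled Cerebrum, and their tissue label does not say which cortical areas or which side were taken. The sources used here give no ages and no number of mice per library, and no label says that libraries of a group come from separate mice, so p-values measure only the spread between these libraries. Regions were compared across all 23431 genes with enough reads, with genotype as an additive term, so that a difference is the mean over both genotypes.

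The hippocampus is a folded strip of older cortex in which granule cells of the dentate gyrus project to CA3 pyramidal cells, which in turn project to CA1. The neocortex that surrounds it is built of layers, with intratelencephalic neurons in the upper layers and neurons that project below the cortex in the deep layers. Both regions hold glutamatergic pyramidal cells and the same broad classes of interneurons and glia. In bulk tissue, fewer cells of a type and less RNA per cell cannot be told apart.

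Libraries held 23.5 to 38.8 M counted reads, and mitochondrial transcripts took 2.11% to 3.68% of them. A principal component analysis over 15799 genes placed the regions on opposite sides of the first component, which held 47.7% of the variance, with scores of -41.1 to -30.6 for the cortical and 27.7 to 40.5 for the hippocampal libraries. The second component, with 33.9%, set a single library apart: the knockout cortex library numbered 2 in its title (knockout cortex 2) scored 70.2, and the other 7 scored -34.9 to 5.3. This library was also the deepest. It had the highest level among the cortical libraries for 37.3% of all genes tested, for all 12 choroid plexus markers, for 11 of 11 tested markers of striatal projection neurons, for 9 of 10 of thalamic neurons and for 12 of 12 of astrocytes. Ttr, the choroid plexus transthyretin transcript, was at 484 CPM (counts per M reads, on scaled library totals) in it and at 6.87, 20.2 and 20.6 CPM in the other cortical libraries, and Drd2, the dopamine receptor of striatopallidal neurons, was at 42 CPM against 0.406 to 1.2. Wild-type hippocampus 2 held Ttr at 946 CPM against 33.4 to 64.9 in the other hippocampal libraries. Because these libraries stand apart, list counts are given below with and without knockout cortex 2, and with the library number as a block (the block) where that changed a count. The part of such marker transcripts in the region differences was not tested beyond those counts.

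Between the regions, 1240 genes (5.29% of those tested) were higher in hippocampus and 1560 (6.66%) were lower at an adjusted p under 0.05 in edgeR's quasi-likelihood test, which is 11.9% in all. At least 2-fold differences were found for 653 genes (2.79%) that were higher and 749 (3.2%) that were lower. All 4 hippocampal libraries lay above all 4 cortical ones for 2165 genes (9.24%) and below them for 2432 (10.4%). Without knockout cortex 2 the test called 2898 genes (12.4%) higher and 2831 (12.1%) lower, and 2772 of the 2800 genes called with all libraries were among them. List counts without that library are to be read against these shares. With all libraries 5843 of the 23431 genes had an unadjusted p under 0.05 in edgeR. DESeq2, another count-based test, called 1611 genes higher and 2017 lower. List counts at that p or in DESeq2 are to be read against these. The count of 2800 fell to 1733 without wild-type cortex 2, to 1574 without knockout hippocampus 1 and to 1661 without wild-type hippocampus 2.

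**Figure D1:**
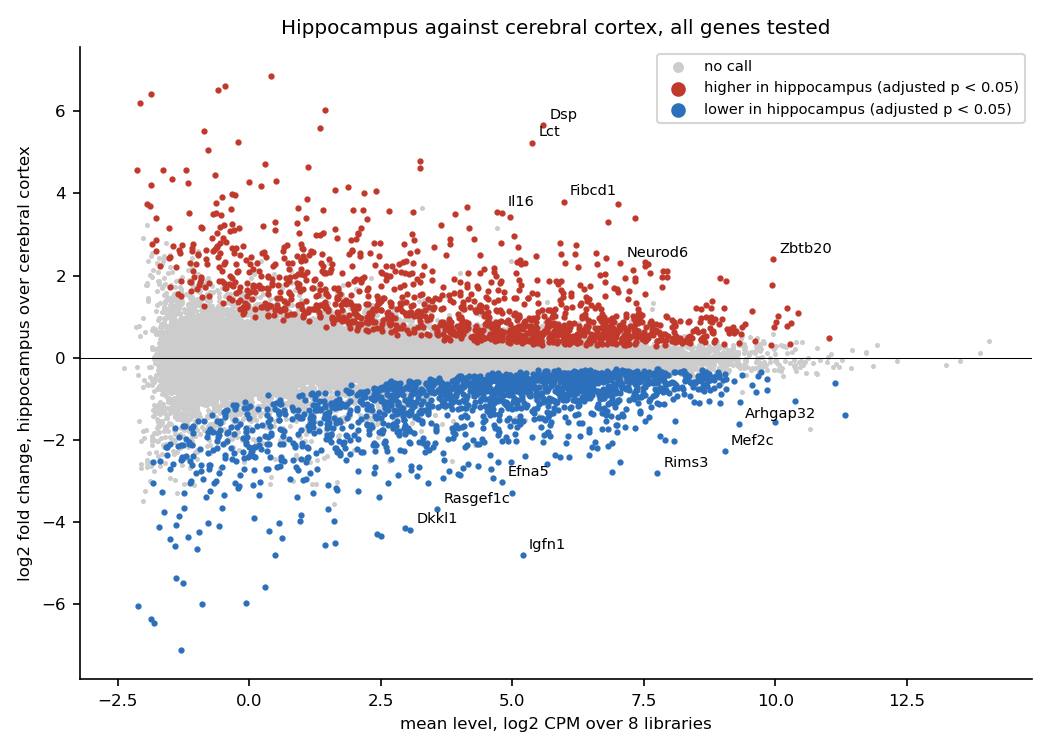
Log2 fold change of hippocampus over cerebral cortex (vertical axis) against the mean level in log2 CPM over the 8 libraries (horizontal axis), 1 point per gene tested, with 1240 genes higher in hippocampus in red and 1560 lower in blue. Genes that differed at least 8-fold lie on both sides, and differences of highly expressed genes such as Zbtb20, Mef2c and Arhgap32 stand out from the grey points at the same level.

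Of the 653 genes at least 2-fold higher in hippocampus 54.7% were protein coding, of the 749 lower 77.3% were, and of all genes tested 67.0%. Long noncoding genes made up 22.1%, 13.2% and 13.1%, so that the share among genes lower in hippocampus was close to that of all genes. The median level was 1.99, 2.47 and 2.79 log2 CPM in the same order, and its part in these shares was not tested. Among protein-coding genes, the median span on the genome was 42.9 kb for those higher, 35.9 kb for those lower and 24.6 kb for all. At least 4-fold differences numbered 251 in each direction, and at least 8-fold ones 83 higher and 65 lower. The cerebellum placed these genes on a wider scale: of those higher in hippocampus 372 had a cerebellar median below both forebrain regions, 201 one between them and 80 one above both (57%, 30.8% and 12.3%). Of those lower in hippocampus 357 had a cerebellar median below both, 252 between and 140 above (47.7%, 33.6% and 18.7%). Over all genes tested these shares were 39.9%, 16% and 44.1%. Genes at least 2-fold apart leave a wider gap between the regions, so the larger middle share follows partly from the choice. Cerebellar medians were scaled over all 14 libraries and forebrain means over the 8, so these placements are approximate. The promoters and all values below are on the build GRCm38.

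The clearest hippocampal transcript was Neurod6, a basic helix-loop-helix transcription factor of excitatory forebrain neurons. Its levels in cortex were 45.9 and 43.9 CPM in the 2 knockout and 38.4 and 50.3 CPM in the 2 wild-type libraries, and in hippocampus 223 and 199, and 234 and 225 CPM. The regions were far from overlapping, at 44.6 ± 4.92 and 220 ± 14.9 CPM (SD, n = 4 each), and the log2 fold change was 2.30 ± 0.11 (SE; edgeR adjusted p = 3.23e-05). Homer3, a postsynaptic scaffold that binds metabotropic glutamate receptors, was at 2.72 to 3.73 CPM in cortex and 22.7 to 26.2 CPM in hippocampus, a log2 fold change of 2.88 ± 0.14. Rasgef1c, a Ras guanine nucleotide exchange factor, was the clearest in the other direction, with 22.5, 17.6, 28 and 19.8 CPM in cortex and 1.57, 1.9, 1.71 and 1.6 CPM in hippocampus. It was lower in hippocampus by a log2 fold change of -3.69 ± 0.19 (edgeR adjusted p = 3.23e-05), a 12.9-fold difference with no overlap. Absence of overlap was required of all genes chosen by size or by p. Ngef, the exchange factor ephexin that acts downstream of Eph receptors, was at 199 to 244 CPM in cortex and 60.2 to 73.5 CPM in hippocampus (-1.69 ± 0.10).

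The 250 bases before the RefSeq start of these genes (GRCm38.p6) are shown. The genes come from those named by p under the rules given below. In each direction they are the 2 with the smallest p whose RefSeq start lies within 500 bases of the annotated gene start. Capitals mark GC boxes, GGGCGG on either strand, and the sequences run 5′ to 3′ on the strand of the gene, at chr6:55681264-55681513 (minus strand) for Neurod6, chr8:70282749-70282998 (plus) for Homer3, chr11:49901585-49901834 (plus) for Rasgef1c and chr1:87573871-87574120 (minus) for Ngef.
Neurod6: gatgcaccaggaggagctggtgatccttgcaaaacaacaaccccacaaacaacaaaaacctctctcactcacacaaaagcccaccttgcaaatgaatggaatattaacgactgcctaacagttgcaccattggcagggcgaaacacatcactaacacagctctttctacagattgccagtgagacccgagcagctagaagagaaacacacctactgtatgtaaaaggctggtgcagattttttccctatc
Homer3: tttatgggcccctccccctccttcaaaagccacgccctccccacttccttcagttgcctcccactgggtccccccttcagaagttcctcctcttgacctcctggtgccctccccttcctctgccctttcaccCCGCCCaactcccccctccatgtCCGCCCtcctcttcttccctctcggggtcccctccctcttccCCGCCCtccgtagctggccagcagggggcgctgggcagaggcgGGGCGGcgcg
Rasgef1c: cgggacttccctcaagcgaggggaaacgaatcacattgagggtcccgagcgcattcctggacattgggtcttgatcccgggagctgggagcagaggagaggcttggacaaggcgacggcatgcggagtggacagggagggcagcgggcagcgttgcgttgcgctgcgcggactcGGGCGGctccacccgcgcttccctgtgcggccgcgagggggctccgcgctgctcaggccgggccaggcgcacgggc
Ngef: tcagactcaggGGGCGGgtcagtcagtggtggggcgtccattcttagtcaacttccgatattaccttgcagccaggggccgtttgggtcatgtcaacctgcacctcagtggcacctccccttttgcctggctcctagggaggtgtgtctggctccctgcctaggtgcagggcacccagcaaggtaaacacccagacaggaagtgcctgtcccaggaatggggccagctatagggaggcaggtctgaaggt
Homer3 held 4 GC boxes, which begin 118, 95, 53 and 10 bases before the RefSeq start. Rasgef1c held 1 at 76 bases and Ngef 1 at 239 bases. The RefSeq start of Homer3 lay 172 bases inside the annotated gene, which begins at 70282827, so its 4 boxes lie within that gene. For Neurod6, Rasgef1c and Ngef the distance was 0. Neurod6 held none of the 7 motifs searched, and its window was the poorest in G and C, at 46.0% against 68.0% for Homer3, 70.0% for Rasgef1c and 59.6% for Ngef.

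Across promoters of this length, matched by symbol for 13512 of the genes tested, the GC box stood in 42.9% of the 340 found among genes at least 2-fold higher in hippocampus, in 45.3% of the 470 among those lower and in 53.6% of all. The CG dinucleotide had a median count of 8 in both groups and of 14 in all promoters, and the TATA box (TATAAA) was present in 10.6%, 10.6% and 7.25%. The E-box CAGATG, of the kind bound by NeuroD factors, was found in 14.4%, 14% and 11%. The E-box CAGCTG was found in 12.4%, 16.6% and 12.5%. The core of the MEF2 motif stood in 1.76% of promoters of genes higher in hippocampus, 4.26% of those lower and 2.77% of all. These were 6, 20 and 374 promoters. The cyclic AMP response element TGACGTCA stood in 0.882%, 2.13% and 2.46% (3, 10 and 333 promoters). The EGR motif GCGGGGGCG stood in 5.29%, 3.4% and 4.45% (18, 16 and 601 promoters). Shares that rest on so few promoters are imprecise. All were searched on both strands and separately, so matches of 2 motifs can overlap. These shares describe letters in a window.

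Other transcripts were higher in hippocampus with small p-values. Il16, the precursor of interleukin 16, was at 3.42 to 6.36 CPM in cortex and 45.4 to 55.8 CPM in hippocampus. Olfml2b, a secreted olfactomedin-domain protein, had a log2 fold change of 2.7 ± 0.14 and the cation channel Trpc4 one of 1.65 ± 0.09. Golm1, a Golgi membrane protein, and Traip, a ubiquitin ligase of DNA replication, each had 1.86 ± 0.11, and the Eph receptor Epha6 had 2.27 ± 0.14. Each of these genes was above its highest cortical level in all 4 hippocampal libraries, as the choice of genes required.

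Dsp and Lct had large differences on the hippocampal side. Dsp, which encodes the desmosomal plaque protein desmoplakin, was at 0.521, 6.19, 0.738 and 0.756 CPM in cortex and 105, 84.4, 141 and 46.9 CPM in hippocampus. The 6.19 CPM belonged to knockout cortex 2, and the log2 fold change of 5.66 ± 0.76 (edgeR adjusted p = 0.00175) became 7.12 without that library. Lct, lactase, rose from 1 to 3.58 CPM in cortex to 53.5 to 105 CPM in hippocampus (5.24 ± 0.39). Pkp2, the desmosomal plakophilin, was 7.73-fold higher in hippocampus, at 6.48 to 9.97 against 50.3 to 62.2 CPM.

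Several further hippocampal transcripts had their highest cortical level in knockout cortex 2 and a larger difference without it. The log2 fold change was 4.78 for Slc9a4, a sodium-proton exchanger, and 6.14 without that library. It was 3.80 and 4.47 for Fibcd1, a membrane receptor for acetylated groups, 3.66 and 4.61 for C1ql2, a secreted mossy fibre protein, and 3.54 and 4.45 for Npy2r, a neuropeptide Y receptor. Vwa3b had 3.55 and 3.94. Ndst4, a heparan sulfate sulfotransferase, was at 26.5 CPM in knockout cortex 2 and 1.28 to 1.44 CPM in the other cortical libraries, against 43.4 to 64.8 CPM in hippocampus. Its log2 fold change of 3.42 ± 0.93 (edgeR adjusted p = 0.0455) became 5.29 without the library, and its edgeR adjusted p was 0.0682 with the library number as a block.

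On the cortical side, Sema3a, a secreted repulsive guidance cue, was at 33.1 to 46.9 CPM in cortex and 7.15 to 8.11 CPM in hippocampus (-2.38 ± 0.13). Rims3, a presynaptic active zone protein, was at 397, 362, 350 and 407 CPM in cortex and at 46, 74.4, 42.6 and 55.3 CPM in hippocampus, a log2 fold change of -2.80 ± 0.17. Rgs6, a regulator of G protein signalling, had -2.42 ± 0.13, and Gucy1a1, a subunit of the nitric oxide receptor guanylate cyclase, -1.90 ± 0.11. The growth factor gene Nrg1 had -1.87 ± 0.12, the GTPase-activating protein gene Arhgap32 -1.61 ± 0.10, the nuclear receptor gene Rora -1.37 ± 0.09 and Mapk6, an atypical MAP kinase, -1.36 ± 0.09.

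Igfn1 and Dkkl1 had wide gaps on this side. Igfn1, an immunoglobulin and fibronectin domain protein, was at 79.6, 16.9, 95.4 and 92 CPM in cortex and 1.02 to 3.61 CPM in hippocampus (-4.81 ± 0.52, and -5.11 without knockout cortex 2, which held the 16.9 CPM). Dkkl1, a dickkopf-like secreted protein, was at 11 to 17.8 CPM in cortex and 0.383 to 1.52 CPM in hippocampus. The alpha-1B adrenergic receptor Adra1b (-3.04 ± 0.25), the ephrin Efna5 (-3.04 ± 0.20), Ankrd34c (-2.93 ± 0.25), Lemd1 (-2.87 ± 0.34), Sowahb (-2.85 ± 0.32) and the potassium channel Kcnh4 (-2.83 ± 0.33) were also lower.

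**Figure D2:**
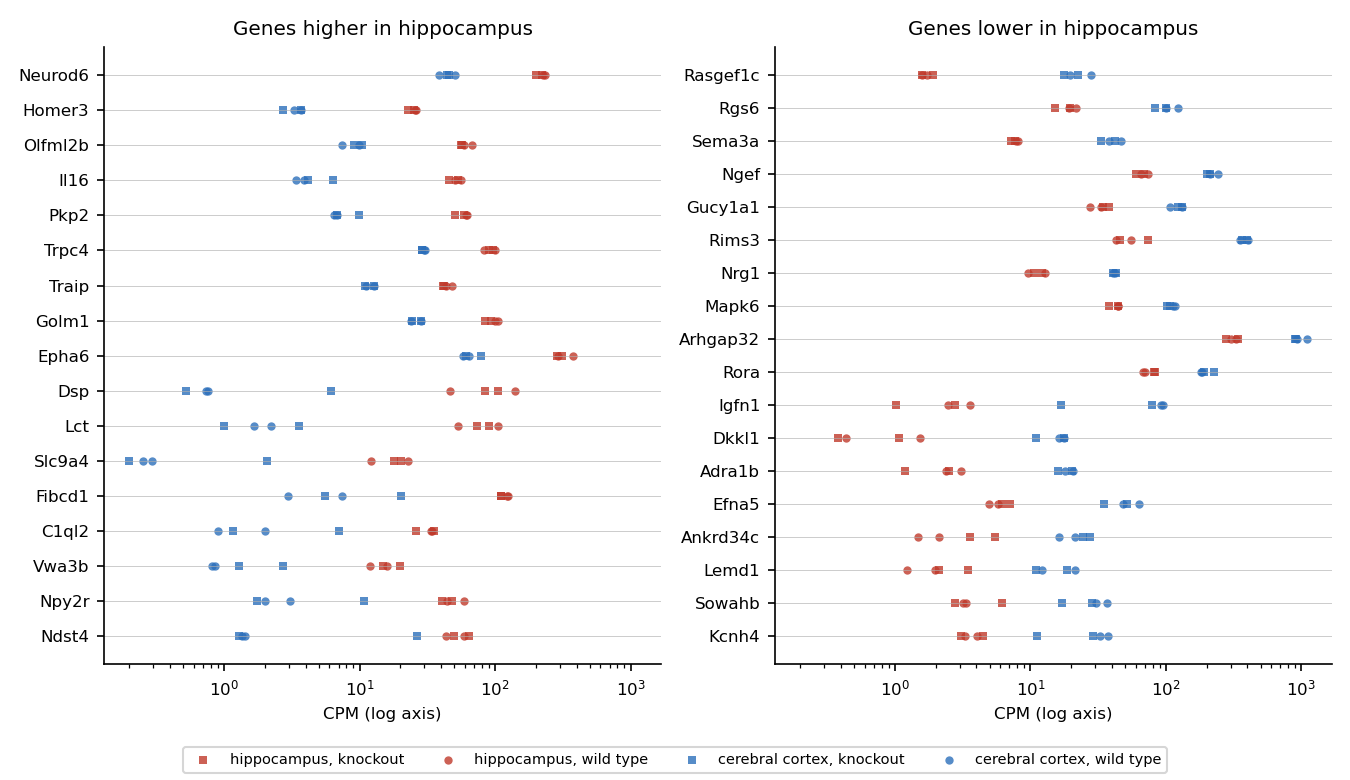
Level in each of the 8 libraries (CPM, log axis) of the 17 genes higher and 18 genes lower in hippocampus chosen by size and by p, with hippocampus in red, cerebral cortex in blue, knockout as squares and wild type as circles. Red and blue points do not overlap in any row, as the choice required, and the blue square nearest to the red points of Dsp, Slc9a4 and Ndst4 is knockout cortex 2.

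In each hippocampal field more markers were called higher than lower in hippocampus, with exceptions in each field. Of 14 dentate granule cell markers 8 were higher and 1 lower (median log2 fold change 1.46, and 9 and 1 with a median of 1.63 without knockout cortex 2), of 12 CA3 markers 7 and 1 (median 1.10), of 11 CA2 and mossy cell markers 5 and 1 (median 1.10) and of 11 markers of CA1 and subiculum 7 and 1 (median 1.57, and 2.59 without that library). The median of all genes was -0.00. Since such lists are built from genes known to be hippocampal, their direction bears on the tissue labels. The lists were chosen with earlier results of these data known, so their direction is no independent check of those labels. The CA3 counts were again 7 and 1 without knockout cortex 2, CA2 and mossy cells became 8 higher and 1 lower, and CA1 became 9 and 0. With the block CA2 and mossy cells had 6 higher, with Csf2rb2 added (edgeR adjusted p = 0.0367), and CA1 had 6, with Ndst4 lost. Summed CA2 and mossy cell markers were at 194 to 211 CPM in hippocampus and 127 to 238 CPM in cortex. The 238 CPM belonged to knockout cortex 2.

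In the dentate list, Prox1, the transcription factor that keeps granule cell identity, was at 22.4, 73.9, 23.4 and 24.5 CPM in cortex and 219, 159, 229 and 130 CPM in hippocampus (2.43 ± 0.39). The libraries did not overlap, and wild-type hippocampus 3 was lowest in hippocampus for Prox1, Dsp, Lct, Tdo2 and Glis3. The zinc finger factor gene Glis3 (2.06 ± 0.16) and Cyp7b1, an oxysterol hydroxylase (1.29 ± 0.14), were also higher. Calb1, the calcium-binding protein calbindin, which granule cells share with upper-layer cortical neurons, was at 72.7 to 88.2 CPM in cortex and 61.9 to 121 CPM in hippocampus and made no call. Ddit4l, an inhibitor of mTOR signalling, was the member lower in hippocampus, at 19.3 to 38.7 against 4.98 to 7.56 CPM.

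In CA3, the kainate receptor subunit Grik4 was at 29.3 to 35.5 CPM in cortex and 82.7 to 102 CPM in hippocampus (1.48 ± 0.10). Iyd, an iodotyrosine deiodinase, was at 0.12 to 0.704 and 4.26 to 9.72 CPM (4.15 ± 0.47). Cdh24, Cpne4 and Bok were higher by 1.23 ± 0.15, 1.27 ± 0.17 and 0.98 ± 0.18, and Elavl4, a neuronal RNA-binding protein, was lower (-0.81 ± 0.11). Among CA2 and mossy cell markers, the G protein regulator Rgs14, which CA2 neurons hold at high level, was at 19.7 to 28.1 CPM in cortex and 61.1 to 71.7 CPM in hippocampus (1.55 ± 0.13). The neurotrophin Ntf3 was higher by 2.24 ± 0.37, Stard5, a lipid transfer protein, by 1.18 ± 0.15, Map3k15 by 1.30 ± 0.29 and the adhesion molecule gene Amigo2 by 1.71 ± 0.48, while Necab3 was lower (-1.94 ± 0.16).

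In CA1 and subiculum, Gpr161, a ciliary receptor of the hedgehog pathway, was at 16.9, 28.4, 14.1 and 18 CPM in cortex and 130, 121, 134 and 128 CPM in hippocampus (2.74 ± 0.19). Lefty1, a secreted inhibitor of nodal, was higher by 4.02 ± 0.34, the protease inhibitor Spink8 by 2.56 ± 0.20, the mannosidase Man1a by 1.57 ± 0.12 and the POU factor Pou3f1 by 1.44 ± 0.13. Wfs1, the wolframin of CA1, was at 70.9 to 158 CPM in cortex and 106 to 216 CPM in hippocampus, which overlapped. Fn1, fibronectin, was lower by a log2 fold change of -0.54 ± 0.15 (edgeR adjusted p = 0.0495) and missed the threshold without knockout cortex 2 (edgeR adjusted p = 0.0708).

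**Figure D3:**
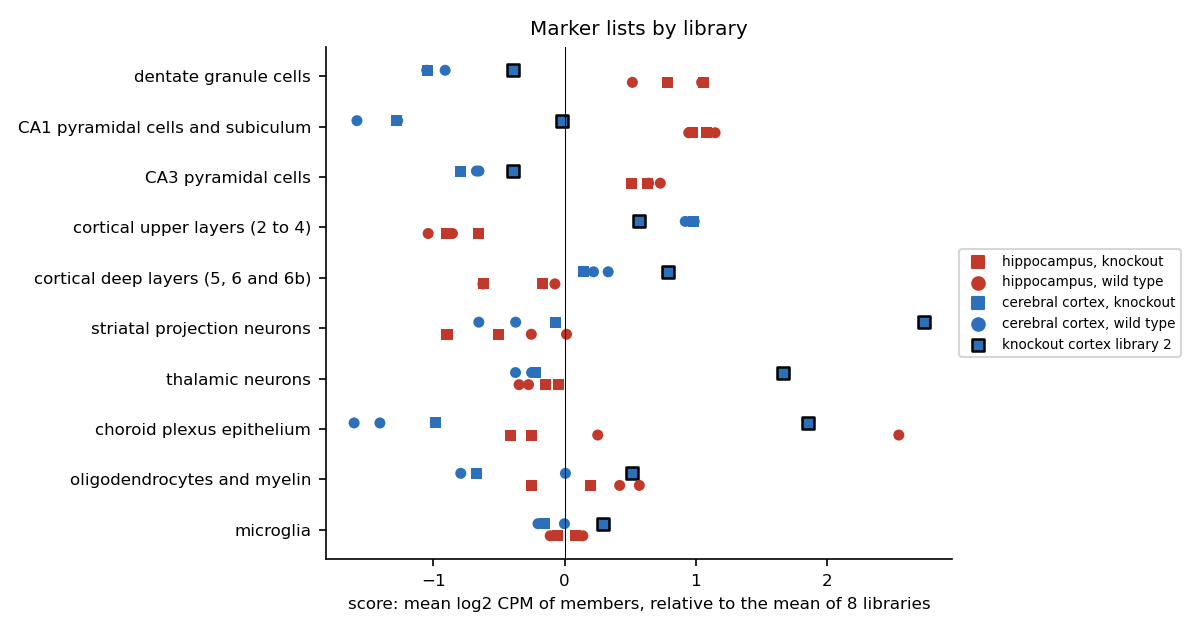
Mean log2 CPM of the members of 10 marker lists in each library, relative to the mean of the 8 libraries (horizontal axis), with hippocampus in red, cortex in blue, knockout as squares, wild type as circles and knockout cortex 2 outlined in black. The regions separate on the lists of the dentate gyrus, CA1, CA3 and the cortical layers, and knockout cortex 2 is apart on striatal and thalamic lists, while on the choroid plexus list wild-type hippocampus 2 is highest.

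Upper-layer markers were the most uniformly cortical list: 13 of 15 were lower in hippocampus and 1 was higher, with a median of -2.03. These were also 13 and 1 without knockout cortex 2, with a median of -2.11. Cux2, a homeobox factor of upper-layer neurons, was at 236, 141, 265 and 260 CPM in cortex and 28, 57, 30.6 and 39.2 CPM in hippocampus (-2.53 ± 0.28). The lowest cortical level was that of knockout cortex 2, and the regions did not overlap. Rspo1, an activator of Wnt signalling, was lower by the largest margin (-4.3 ± 0.36), and Lamp5 (-2.38 ± 0.19), Kcnh5 (-2.41 ± 0.18), Rorb, a layer 4 nuclear receptor (-1.82 ± 0.15), Cux1 (-1.70 ± 0.14) and Plcxd2 (-2.07 ± 0.13) were lower too. Mdga1, an adhesion molecule that binds neuroligins, was the member higher in hippocampus, at 17.2 to 57.2 against 115 to 142 CPM (2.20 ± 0.36).

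Deep-layer markers were divided. Of 19, 6 were lower and 2 higher (median -0.85), and without knockout cortex 2 these were 6 and 3. With the block 9 were lower, with the subplate markers Ccn2 and Cplx3 and the layer 6 marker Rprm added (edgeR adjusted p = 0.0118, 0.0303 and 0.017). Tbr1, a T-box factor of layer 6, was at 143 to 226 CPM in cortex and 52 to 79 CPM in hippocampus (-1.45 ± 0.17), and Deptor, an mTOR inhibitor, Ldb2, Foxp2, Syt6 and Qrfpr were lower by -1.54, -0.85, -2.31, -1.70 and -1.76 on the log2 scale. Fezf2, the factor that specifies corticospinal neurons, was at 18.6 to 26.4 CPM in cortex and 21.3 to 29.8 CPM in hippocampus and made no call. Bcl6, a transcriptional repressor, and Hs3st4, a heparan sulfate sulfotransferase, were higher in hippocampus (1.16 ± 0.13 and 1.24 ± 0.14), each without overlap.

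Among transcription factors that pattern the forebrain or mark its excitatory neurons, 9 of 27 were higher, 5 lower and 13 made no call (12 higher and 6 lower without knockout cortex 2). Zbtb20, a zinc finger factor needed for hippocampal pyramidal identity, was at 279, 464, 273 and 267 CPM in cortex and 1783, 1463, 1942 and 1476 CPM in hippocampus (2.39 ± 0.19). Mef2c, an activity-regulated factor, was the mirror image, with 942, 565, 982 and 1007 CPM in cortex and 178, 210, 170 and 164 CPM in hippocampus (-2.27 ± 0.19). In both genes knockout cortex 2 was the cortical library nearest to hippocampus, and the regions did not overlap. The neuronal basic helix-loop-helix genes Neurod2 (1.2 ± 0.12) and Bhlhe22 (1.15 ± 0.11) and the nuclear factor gene Nfib (0.89 ± 0.11) were higher. The nuclear receptor Nr2f1, graded across cortical areas, was lower (-0.82 ± 0.14), as were Id2 (-0.74 ± 0.09), Sox5 (-0.58 ± 0.12) and Meis2 (-0.98 ± 0.21). Lhx9 was at 0.0369 to 0.16 CPM in cortex apart from 9.71 CPM in knockout cortex 2, and at 10.2 to 24.6 CPM in hippocampus. It made no call with all libraries and had a log2 fold change of 7.23 without that one.

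**Figure D4:**
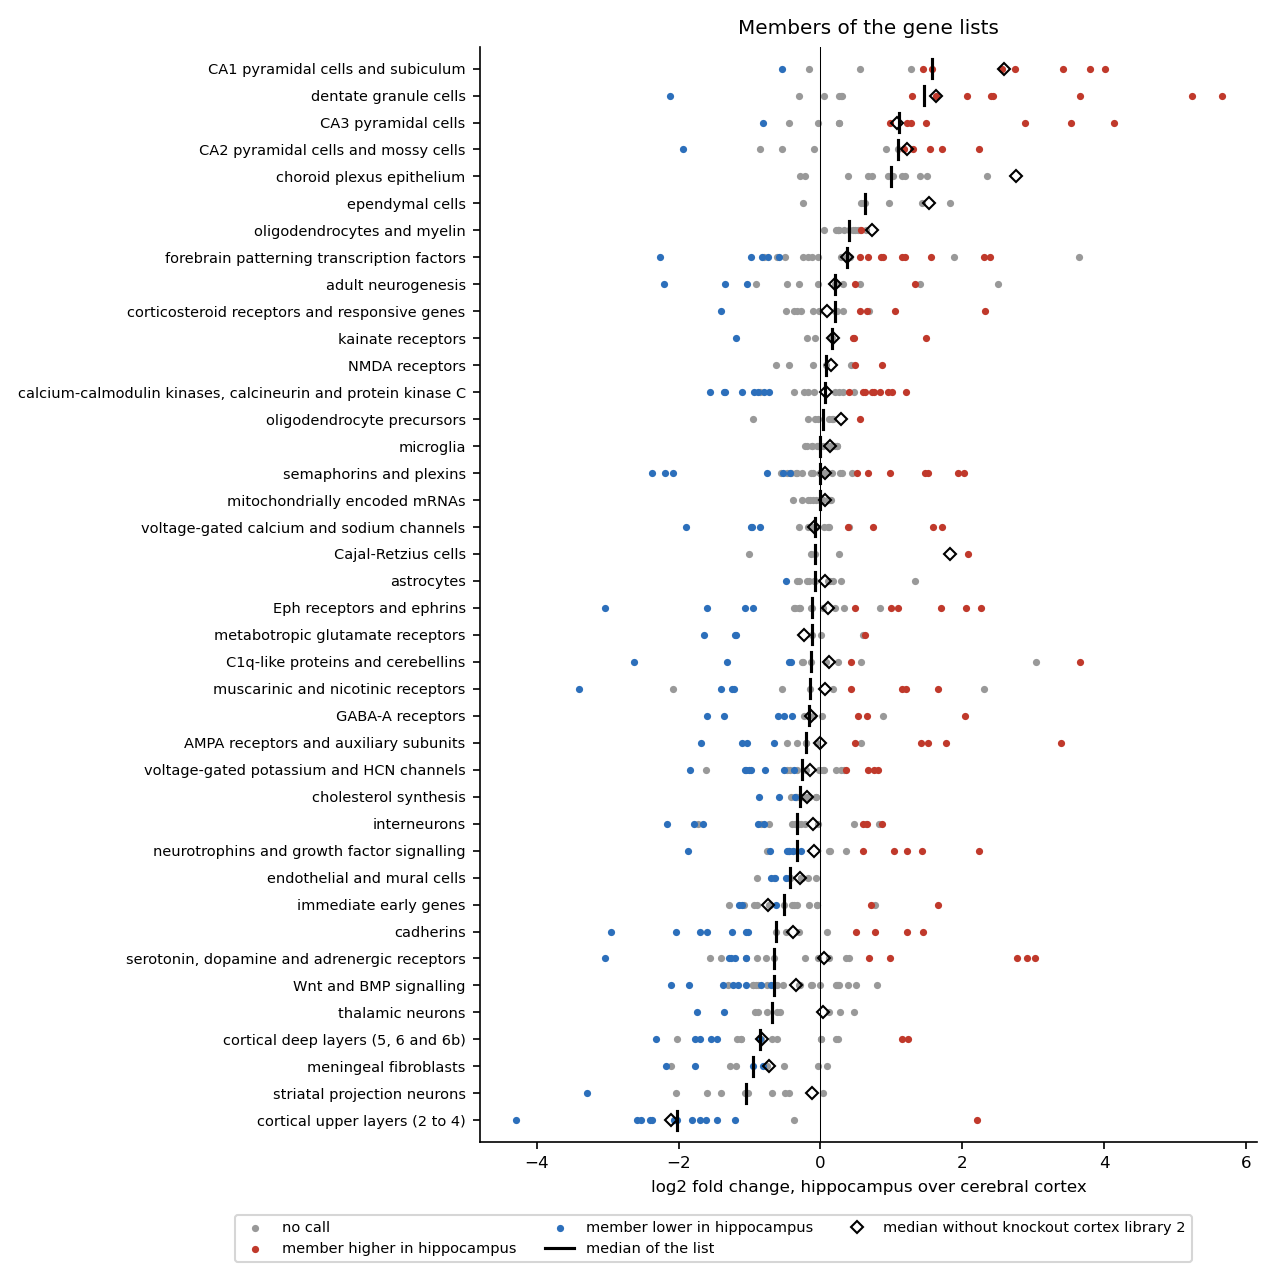
Log2 fold change of hippocampus over cortex for each tested member of the 40 gene lists (horizontal axis; rows are lists ordered by their median), with members that passed the test in red (higher) or blue (lower), the list median as a bar and the median without knockout cortex 2 as a diamond. Medians of the hippocampal field lists lie to the right and that of the upper-layer list to the left. Most receptor and channel lists have members on both sides. The diamonds of the choroid plexus, Cajal-Retzius, striatal and thalamic lists lie away from their bars.

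Of 22 interneuron transcripts 3 were higher, 5 lower and 14 made no call (7 higher and 6 lower without knockout cortex 2). With the block 6 were lower, with Slc32a1, the vesicular GABA transporter, added (edgeR adjusted p = 0.0283). The synthesizing enzymes Gad1 and Gad2 made no call (212 to 336 against 212 to 226 CPM, and 121 to 356 against 142 to 152 CPM), and neither did Sst, somatostatin. Vip, the vasoactive intestinal peptide of a cortical subclass, was at 36.4, 17, 20.6 and 28.9 CPM in cortex and 7.87, 10.7, 6.26 and 7.88 CPM in hippocampus (-1.66 ± 0.25). Crh (-2.16 ± 0.26), Tac2 (-1.79 ± 0.45), Pvalb, parvalbumin (-0.88 ± 0.16), and Npy (-0.79 ± 0.20, edgeR adjusted p = 0.0326, and 0.0501 without knockout cortex 2) were lower too. The cannabinoid receptor Cnr1 (0.61 ± 0.13), Adarb2 (0.65 ± 0.10) and Ndnf (0.87 ± 0.22) were higher.

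Of 5 Cajal-Retzius markers tested, Trp73 was higher, at 0.443 to 1.86 CPM in cortex and 3.93 to 4.47 CPM in hippocampus. For Ebf3 and Lhx1 knockout cortex 2 stood at 12.7 and 4.08 CPM against at most 0.591 and 0.0801 CPM in the other cortical libraries, and without it 3 markers were higher and 1 lower. Cacna2d2, a calcium channel subunit, passed downward with the library number as a block (edgeR adjusted p = 0.0169, against 0.0546 without). The adult dentate gyrus makes new granule cells, and 2 of 16 neurogenesis genes were higher and 3 lower, as many as without knockout cortex 2 (3 and 2 with the block). Hopx, a marker of quiescent progenitors, was at 1.88 to 4.32 and 6.7 to 9.48 CPM (1.33 ± 0.24), and Ccnd2, a cyclin, was higher by 0.48 ± 0.12. Stmn1, stathmin (-1.35 ± 0.13), and Neurod4 (-2.20 ± 0.61) were lower. Dcx, the doublecortin of immature neurons, was lower as well, at 101, 36.9, 77.1 and 79.1 CPM in cortex and 28.9 to 47.1 CPM in hippocampus (edgeR adjusted p = 0.0498, and 0.0866 with the library number as a block). The proliferation gene Mki67 made no call (2.59 to 11.5 and 4.84 to 13 CPM).

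Microglial, astrocyte and oligodendrocyte lists held few calls with all libraries. Of all genes tested 5.29% were higher and 6.66% lower in edgeR's test, so few calls in lists of this size are near those shares. None of 12 microglial genes passed in either direction in edgeR's test (median 0.00), 0 had an unadjusted p under 0.05 and DESeq2 called 0. Without knockout cortex 2, which had the highest cortical level for 10 of the 12, 1 was higher and the median was 0.13. Their summed level was 288 to 439 CPM in cortex and 322 to 376 CPM in hippocampus. The one with the most reads, the colony-stimulating factor receptor gene Csf1r, was at 63 to 105 CPM in cortex and 78.2 to 88.6 CPM in hippocampus. Of 12 astrocyte genes Aldh1l1, a folate enzyme, was lower (-0.49 ± 0.10) and none was higher. Gfap, the intermediate filament of astrocytes, was at 57.4, 207, 117 and 76.8 CPM in cortex and 212, 249, 324 and 389 CPM in hippocampus. Its libraries did not overlap, the log2 fold change of 1.34 ± 0.39 missed the threshold (edgeR adjusted p = 0.0608), and without knockout cortex 2, at 207 CPM, it was 1.93 (edgeR adjusted p = 4.65e-05). Gfap also passed with the library number as a block (edgeR adjusted p = 0.0399), which made 1 astrocyte gene higher, and DESeq2 likewise called 1. Aqp4, Gja1 and Slc1a3 were the other astrocyte genes that passed upward without that library, which made 4 higher and 1 lower.

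Myelin genes had a median of 0.40, with Aspa, an N-acetylaspartate hydrolase, the member that passed (0.58 ± 0.16) among 13. With the library number as a block 2 passed, the tight junction claudin gene Cldn11 being the other (edgeR adjusted p = 0.0377). Without knockout cortex 2, which had the highest cortical level for 11 of the 13, 5 were higher and the median was 0.73. Their summed level was 1788 to 5706 CPM in cortex and 3035 to 5319 CPM in hippocampus. The 5706 CPM was that of knockout cortex 2, and the other cortical libraries were at 1788, 2199 and 3678 CPM. Of 8 precursor genes Vcan was higher (0.56 ± 0.14), and without knockout cortex 2 so were Olig1 and Sox10, 3 in all.

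Some vascular and meningeal genes were called lower in hippocampus and none higher. Of all genes tested 5.29% were higher and 6.66% lower in edgeR's test, so lists of this size can lack a higher call at that share. Endothelial Cdh5, Pecam1 and Flt1 were lower in hippocampus (-0.69 ± 0.18, -0.64 ± 0.13 and -0.49 ± 0.09), 3 of 13 vascular genes with and without knockout cortex 2, and none was higher. All 13 had a log2 fold change below 0, from -0.90 to -0.07, with a median of -0.43 that was -0.28 without knockout cortex 2. At an unadjusted p under 0.05 (5843 of all 23431 genes, both directions together), 7 were lower and 0 higher. DESeq2 called 5 lower and 0 higher (2017 and 1611 of all genes). The block gave 4 lower, with Acta2, the smooth muscle actin gene, added (edgeR adjusted p = 0.0375). The summed vascular level was 362 to 512 CPM in cortex and 322 to 349 CPM in hippocampus, without overlap and highest in knockout cortex 2. Of 11 meningeal fibroblast genes 4 were lower and none higher (6 lower in DESeq2 and with the block, where the collagen gene Col3a1 and the transporter gene Slc13a4 were added, and 2 lower without knockout cortex 2), of which Col1a2 and Aldh1a2 missed the threshold without knockout cortex 2 (edgeR adjusted p = 0.0611 and 0.0655) and Slc6a13 and Foxc1 remained. Col1a2 was at 67.1 CPM in wild-type cortex 2 against 12.1 to 17.4 CPM in the other cortical libraries and 3.23 to 11 CPM in hippocampus.

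Markers of choroid plexus, ependymal cells, striatum and thalamus gave differences that moved with single libraries. None of 12 choroid plexus genes and none of 7 ependymal genes passed in edgeR's test with all libraries, where 1 and 0 of them had an unadjusted p under 0.05, and DESeq2 called 1 of each list, both higher. Without knockout cortex 2, 3 and 6 of them were higher in hippocampus, and the choroid median rose from 0.99 to 2.76. Enpp2, autotaxin, was at 192 to 475 CPM in cortex and 119 to 581 CPM in hippocampus, and the ependymal cilia factor gene Foxj1 at 2.38 to 12.4 and 4.47 to 10.8 CPM. The summed choroid level was 224 to 1073 CPM in cortex and 219 to 1722 CPM in hippocampus. Of 11 striatal markers 1 was lower, and without knockout cortex 2 there were 2 higher and 1 lower and the median of -1.06 became -0.12. Of 10 thalamic markers, Rora and the vesicular glutamate transporter Slc17a6 (-1.73 ± 0.46) were lower, and without that library 2 were higher and 2 lower and the median of -0.69 became 0.04.

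Transmitter receptors differed subunit by subunit within families. Of the AMPA receptor genes and their auxiliary subunits 5 of 15 were higher in hippocampus and 4 lower (6 and 5 without knockout cortex 2). Gria1 was at 421, 631, 375 and 369 CPM in cortex and 1573, 1418, 1660 and 1408 CPM in hippocampus (1.78 ± 0.16), with no overlap. Gria4 was lower (149 to 186 against 67.5 to 85.7 CPM, -1.10 ± 0.11), and Gria2 and Gria3 made no call (0.57 ± 0.18 and -0.20 ± 0.14). Both passed without knockout cortex 2, Gria2 upward and Gria3 downward, and with the block Gria2 passed, the sixth of the list to be higher (edgeR adjusted p = 0.0321). The auxiliary subunits divided the same way. Shisa6 was at 17.7 to 57.4 CPM in cortex and 264 to 311 CPM in hippocampus (3.39 ± 0.33), and Cacng8, the transmembrane AMPA receptor regulatory protein gamma-8, at 53.4 to 63 and 144 to 179 CPM (1.51 ± 0.10). The cornichon Cnih2 was higher by 1.42 ± 0.19. Cacng3 (-1.04 ± 0.12), Cacng2, stargazin (-0.66 ± 0.09), and Gsg1l (-1.69 ± 0.19) were lower.

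For kainate receptors, Grik4 stood out again, Grik2 (0.46 ± 0.09) and the auxiliary Neto1 (0.47 ± 0.13) were higher, and Grik3 was lower (128 to 160 CPM in cortex and 45.3 to 73.9 CPM in hippocampus, -1.19 ± 0.14). The NMDA receptor subunits Grin2a (0.87 ± 0.14) and Grin2b (0.48 ± 0.10) were higher and the obligatory Grin1 made no call (349 to 495 and 342 to 429 CPM). The group III and II metabotropic receptors Grm8 (-1.64 ± 0.22), Grm4 (-1.21 ± 0.22) and Grm3 (-1.19 ± 0.13) were lower, whereas Grm5, of group I, was higher (252 to 314 against 427 to 491 CPM, 0.63 ± 0.10). The kainate list again had 3 higher and 1 lower without knockout cortex 2, and the NMDA list 2 higher, while the metabotropic list went from 1 higher and 3 lower to 2 and 4.

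Of 12 GABA-A receptor subunits 3 were higher and 5 lower, as many as without knockout cortex 2. With the block 4 were higher, with Gabra2 added (edgeR adjusted p = 0.00178). Gabra5, whose receptors are largely extrasynaptic, was at 37.4, 59.1, 42.1 and 32.3 CPM in cortex and 170, 155, 198 and 178 CPM in hippocampus (2.04 ± 0.18). Gabra3 was at 110 to 140 CPM in cortex and 26.9 to 47.3 CPM in hippocampus (-1.60 ± 0.17), and Gabrd, the delta subunit, was lower by -1.37 ± 0.12, with Gabrg3 (-0.51 ± 0.10) and Gabrb2 (-0.40 ± 0.08). The beta subunit Gabrb1 was higher (0.65 ± 0.13) and the alpha subunit Gabra4 made no call.

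Of 21 monoamine receptors 5 were higher and 5 lower (5 and 6 with the block). Without knockout cortex 2, whose score for this list stood apart, 8 were higher and 7 lower, and the median of -0.65 became 0.05. Drd5, a dopamine receptor that raises cyclic AMP, was at 0.681, 1.6, 0.517 and 0.864 CPM in cortex and 8.13, 7.94, 7.01 and 6.66 CPM in hippocampus (3.03 ± 0.31). The serotonin receptors Htr5b (2.91 ± 0.37), Htr4 (2.77 ± 0.37) and Htr1a (0.98 ± 0.18) and the adrenergic Adra1d (0.68 ± 0.19) were higher. The adrenergic receptors Adra1b, Adra1a (-1.26 ± 0.14) and Adrb1 (-1.29 ± 0.21) and the serotonin receptors Htr5a (-1.21 ± 0.13) and Htr2a (-1.06 ± 0.14) were lower. The 3 alpha-1 adrenergic genes thus fell on both sides, and so did the Htr5 pair.

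Among cholinergic receptors 4 of 13 were higher and 4 lower (5 and 4 without knockout cortex 2). The muscarinic Chrm1 (0.43 ± 0.08) and the nicotinic Chrna7 (12.8 to 18.9 against 33.1 to 40.2 CPM, 1.15 ± 0.15), Chrna5 (1.66 ± 0.28) and Chrna2 (1.21 ± 0.26) were higher. Chrnb3 was at 1.4 to 4.22 CPM in cortex and 0.186 to 0.438 CPM in hippocampus (-3.40 ± 0.43), and the muscarinic Chrm2 (-1.41 ± 0.17) and Chrm4 (-1.24 ± 0.27) and the nicotinic Chrna4 (-1.22 ± 0.27) were lower. Chrm5 was at 0.222 to 0.252 CPM in 3 cortical libraries, at 4.14 CPM in knockout cortex 2 and at 3.87 to 5.04 CPM in hippocampus, and passed only without that library (log2 fold change 4.13, edgeR adjusted p = 1.1e-06).

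**Figure D5:**
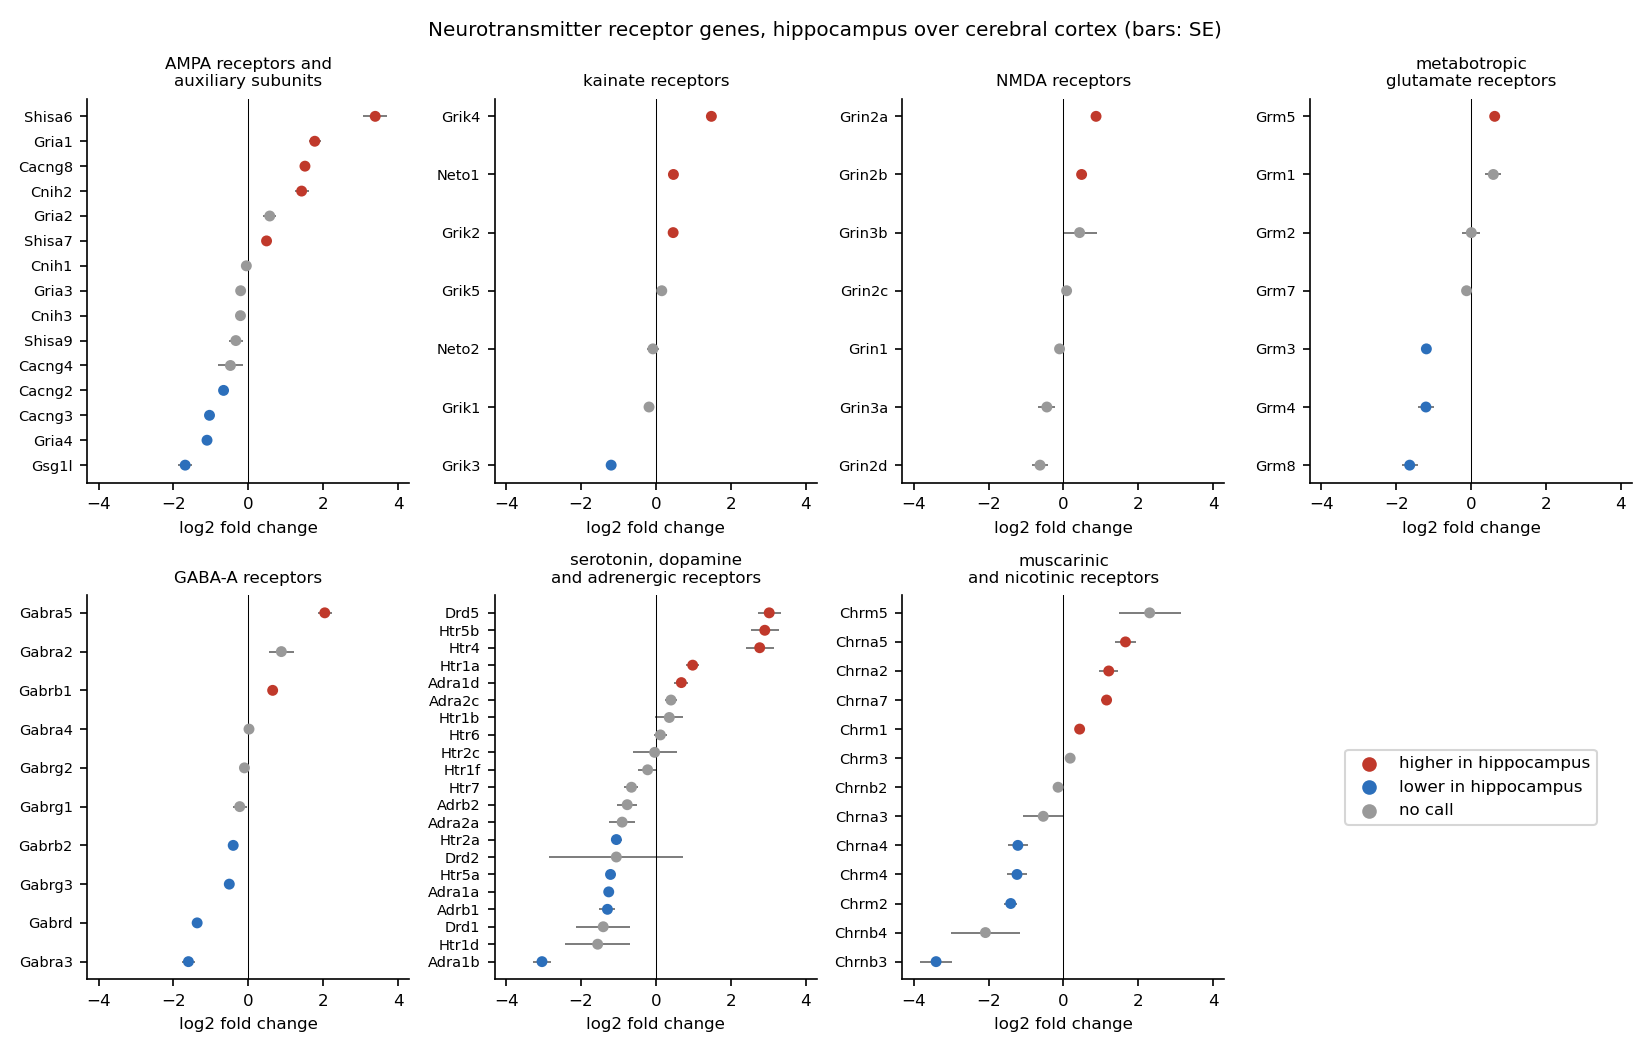
Log2 fold change of hippocampus over cortex with its SE (horizontal axis) for tested genes of 7 transmitter receptor families, red where higher in hippocampus, blue where lower and grey where the test made no call. Every family except the NMDA receptors has members that passed on both sides, from Shisa6 at 3.39 to Chrnb3 at -3.40.

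Voltage-gated potassium and HCN channels had 4 of 24 higher and 8 lower (5 and 10 without knockout cortex 2). Kcna2 (-0.78 ± 0.09), the ether-a-go-go family members Kcnh1 (-0.98 ± 0.12) and Kcnh3 (-1.06 ± 0.16), the silent subunit Kcns1 (-1.84 ± 0.29) and the fast Kcnc1 (-0.38 ± 0.09) were lower. Of the 4 that were higher, Kcnd2 (0.67 ± 0.10) and Kcna4 (0.82 ± 0.14) encode A-type channels and Kcnip2 (0.75 ± 0.12) a partner of Kcnd2. Calcium and sodium channels had 4 of 18 higher and 4 lower (5 and 6 without knockout cortex 2), and the low-voltage-activated (T-type) genes split: Cacna1h was at 56.6 to 75.5 CPM in cortex and 156 to 226 CPM in hippocampus (1.59 ± 0.14), while Cacna1g (-0.98 ± 0.15) and Cacna1i (-0.96 ± 0.14) were lower. Cacna1e (0.75 ± 0.08), Cacna1c (0.40 ± 0.09) and the sodium channel beta subunit Scn3b (1.72 ± 0.25) were higher, and Scn1a (-0.85 ± 0.11) and Scn4b (-1.90 ± 0.37) lower.

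In calcium-dependent signalling, 9 of 26 genes were higher and 8 lower (12 and 9 without knockout cortex 2). With the block 9 were lower, with Nrgn, neurogranin, added (edgeR adjusted p = 0.0453). Camk2b was at 631, 805, 716 and 643 CPM in cortex and 1495, 1356, 1485 and 1314 CPM in hippocampus (1.02 ± 0.11), and Camk2g (-0.88 ± 0.10) was lower, while Camk2a made no call (0.32 ± 0.11). Camk2n1, the endogenous inhibitor of the kinase, was at 1518, 1148, 1783 and 1632 CPM in cortex and 568, 525, 452 and 503 CPM in hippocampus (-1.56 ± 0.14). Neither Camk2b nor Camk2n1 overlapped between regions. Of the conventional protein kinase C genes, Prkca (0.95 ± 0.11) was higher and Prkcb made no call, and the calcineurin catalytic subunit Ppp3ca was higher by 0.85 ± 0.11. Camk4 (-0.72 ± 0.09), Camk1 (-1.11 ± 0.14), Camk1g (-0.79 ± 0.13) and Camk2n2 (-1.37 ± 0.18) were lower.

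Genes of axon guidance and adhesion differed by member within each family. Of 21 Eph receptors and ephrins 6 were higher and 4 lower (8 and 6 without knockout cortex 2), and the 6 were all receptors. Epha7 was at 74.7, 80, 71.6 and 77.9 CPM in cortex and 353, 285, 381 and 246 CPM in hippocampus (2.06 ± 0.14). Epha6, Epha3 (1.70 ± 0.12), Epha5 (1.10 ± 0.12), Epha4 (1 ± 0.10) and Ephb2 (0.49 ± 0.10) were the others. Efna5, a ligand of these A-type receptors, was at 51.7, 34.7, 48.5 and 63.3 CPM in cortex and 6.21, 7.07, 4.94 and 5.8 CPM in hippocampus, with no overlap. The ligand Efnb2 (-1.07 ± 0.15) and the receptors Ephb6 (-0.95 ± 0.15) and Epha8 (-1.59 ± 0.28) were also lower.

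Semaphorins, plexins and neuropilins had 7 of 30 higher and 6 lower (9 and 7 without knockout cortex 2). The receptor Nrp1 was at 32.8, 46, 34.3 and 47.2 CPM in cortex and 171, 157, 155 and 170 CPM in hippocampus (2.02 ± 0.14), opposite in direction to its ligand Sema3a. Sema3e (1.51 ± 0.16), Sema5a (1.95 ± 0.31) and the receptors Plxna4 (0.98 ± 0.12), Plxna1 (0.67 ± 0.09) and Nrp2 (1.47 ± 0.35) were higher. Plxnd1, the receptor of Sema3e, was at 143 to 176 CPM in cortex and 25.4 to 43.2 CPM in hippocampus (-2.20 ± 0.18), so this ligand and receptor also moved in opposite directions. Sema3f (-2.07 ± 0.27) and Sema4a (-0.75 ± 0.18) were lower.

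Cadherins had 4 of 15 higher and 7 lower (4 and 8 without knockout cortex 2). Cdh7 (-2.03 ± 0.20), Cdh18 (-1.25 ± 0.13), Cdh6 (-1.61 ± 0.19), Cdh22 (-1.70 ± 0.21), Cdh12 (-1.03 ± 0.21) and Cdh1 (-2.95 ± 0.56) were lower, and Cdh9, which joins dentate and CA3 cells at mossy fibre synapses, was at 14 to 26.2 CPM in cortex and 43 to 53.4 CPM in hippocampus (1.45 ± 0.19). Cdh8 (0.77 ± 0.13) and Cdh11 (0.50 ± 0.09) were higher. Of the secreted synapse organizers, C1ql2 was higher and the cerebellins Cbln2 (26.6 to 40.5 against 3.71 to 7.89 CPM, -2.63 ± 0.25) and Cbln4 (-1.32 ± 0.28) were lower, among 13 genes of which 2 were higher and 4 lower (2 and 5 without knockout cortex 2). With the block 3 were higher and 3 lower, with Cbln3 added and Adgrb1 lost (edgeR adjusted p = 0.000817 and 0.0598).

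Growth factor genes had 5 of 18 higher and 6 lower (6 and 7 without knockout cortex 2, 5 and 4 with the block). Bdnf, the brain-derived neurotrophic factor, was at 18.3, 16.9, 24.6 and 33.8 CPM in cortex and 52.9, 38.8, 56.2 and 39.1 CPM in hippocampus (1.04 ± 0.20). Its receptor Ntrk2 was lower (-0.45 ± 0.09) and Ntrk3, the receptor of Ntf3, was higher (0.60 ± 0.11). Fgf10 (1.43 ± 0.27) was higher and Vgf, a secretory peptide precursor, lower (-0.71 ± 0.10). Fgf9 and Igf1r, which were lower, missed the threshold with the library number as a block (edgeR adjusted p = 0.0515 and 0.0839).

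Wnt and bone morphogenetic protein genes had 8 of 28 lower and none higher in edgeR's test, with a median of -0.66 that was -0.34 without knockout cortex 2. Of all genes tested 6.66% were lower and 5.29% higher in that test. At an unadjusted p under 0.05 (5843 of all 23431 genes, both directions together), 15 were lower and 2 higher. DESeq2 called 11 lower and 1 higher (2017 and 1611 of all genes). Bmp3 was at 30.1 to 36.1 CPM in cortex and 4.72 to 10.4 CPM in hippocampus (-2.11 ± 0.27). The ligand Wnt4 (-1.17 ± 0.16), the receptors Fzd1 (-1.05 ± 0.17) and Fzd3 (-0.70 ± 0.09) and the antagonists Sfrp1 (-1.38 ± 0.27) and Nog (-0.84 ± 0.19) were among them. Wnt7b and Chrd passed upward without knockout cortex 2, which made the counts 2 higher and 8 lower. Wnt10a missed the threshold with the library number as a block (edgeR adjusted p = 0.0629) and Wnt9a passed downward (edgeR adjusted p = 0.024).

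The mineralocorticoid receptor gene Nr3c2 was at 55.7, 84.1, 49.1 and 57.5 CPM in cortex and 298, 263, 363 and 307 CPM in hippocampus (2.33 ± 0.18), with no overlap. The glucocorticoid receptor gene Nr3c1, which binds the same hormone at higher concentrations, made no call (116 to 163 and 99 to 112 CPM, -0.37 ± 0.11). Hsd11b1, the enzyme that regenerates active corticosteroid, was higher (1.05 ± 0.15), as were Fkbp5 (0.66 ± 0.17) and Ddit4 (0.56 ± 0.15), and the corticotropin-releasing hormone receptor Crhr1 was lower (-1.40 ± 0.29). These were 4 of 15 higher and 1 lower (6 and 2 without knockout cortex 2). With the library number as a block 3 were lower, and Nr3c1 and the clock gene Per1 were the additions (edgeR adjusted p = 0.0468 and 0.037).

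Immediate early genes, whose transcripts rise within minutes of neuronal activity, had 2 of 19 higher and 3 lower (1 and 4 without knockout cortex 2, 3 and 6 with the block). Wild-type cortex 3 had the highest cortical level of Fos, at 48.5 CPM against 6.45 to 18.1 CPM in the other cortical libraries and 4.25 to 16.8 CPM in hippocampus, and of Arc, at 519 against 51.2 to 182 CPM. Egr1 (-1.11 ± 0.26), Dusp1 (-1.15 ± 0.23) and Egr3 (-0.63 ± 0.13) were lower and Jun (0.72 ± 0.19) and Nr4a3 (1.66 ± 0.37) higher. Egr1 and Nr4a3 missed the threshold without knockout cortex 2 (edgeR adjusted p = 0.0569 and 0.103). Of 18 cholesterol synthesis genes 3 were lower, Fdft1 (-0.58 ± 0.16) and Lss (-0.36 ± 0.10) among them, and none higher, as many as without knockout cortex 2 (2 lower with the block). In edgeR's test 6.66% of all genes were lower and 5.29% higher. DESeq2 called 3 of the cholesterol genes lower and 0 higher. An unadjusted p under 0.05, which 5843 of all 23431 genes had in either direction, was found for 6 lower and 0 higher. Lss missed the threshold with the block (edgeR adjusted p = 0.0671). None of 13 mitochondrially encoded transcripts passed in edgeR's test with or without knockout cortex 2 (median -0.01), 1 had an unadjusted p under 0.05 and DESeq2 called 0. The level of mt-Co1, the cytochrome oxidase subunit and the one with the most reads, was 10709 to 19095 CPM in cortex and 14713 to 16285 CPM in hippocampus.

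The region difference was also asked of each genotype. A test of the interaction, with 2 libraries for each region and genotype and 4 residual degrees of freedom, called 0 of 23431 genes (0%) in edgeR, with 526 at an unadjusted p under 0.05, and DESeq2 called 5. The 5 genes with the smallest p had an edgeR adjusted p of 0.95 each. They were Cd24a, a surface glycoprotein gene whose hippocampus-to-cortex log2 fold change was lower in knockout by -1.84 ± 0.40, Gapdh (-2.69 ± 0.60), the choroid plexus chloride channel gene Clic6 (-5.10 ± 1.16), Drc7, of motile cilia (-4.20 ± 0.96), and the cerebellin Cbln2 (1.22 ± 0.28). Clic6 was at 22.5 CPM in knockout cortex 2 and at 28.5 CPM in wild-type hippocampus 2, against 1.07 to 10.7 CPM elsewhere. Gapdh, whose reads may be shared with its many processed copies, was at 183 CPM in knockout cortex 2, at 57.5 CPM in knockout cortex 1 and at 16.8 to 23.9 CPM elsewhere. When knockout cortex 1 was left out, so that knockout cortex 2 alone stood for its group, the interaction called 2463 genes.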

How the data were processed

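Bulk total RNA was extracted with TRIzol, treated with DNaseI and sequenced, per the labels. The authors deposited 1 table of whole, unnormalized read counts per gene (48440 genes, of which 12887 had no reads in these 8 libraries). Per the submitters' processing notes, the tools were Trim Galore 0.6.4, cutadapt 2.10, STAR 2.7.3a and featureCounts 2.0.1 with the builds GRCm38.p6 and mm10. Strand setting, handling of reads mapping to several places and the annotation release used were not given in the sources used here. Antisense, overlapping and near-identical genes are therefore uncertain. Symbols came from GENCODE M21 (48058 identifiers matched). The targeted gene was not identified by the name CARIP, so its level is not reported.

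Counts were filtered by filterByExpr on the 4 groups, scaled by TMM and tested with edgeR 4.0.16 (R 4.3.3, robust quasi-likelihood test, genotype plus region, 5 residual degrees of freedom, biological coefficient of variation 25.1%), with Benjamini-Hochberg adjustment over all 23431 genes and a threshold of 0.05. CPM use TMM-scaled totals. Alternatives used limma 3.58.1 and DESeq2 1.42.0. The code was tested on simulated data.

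Genes named were, per direction, the 10 largest changes and the 10 smallest p-values among genes with a mean log2 CPM of at least 3, no overlap between regions, a pass also without knockout cortex 2 and a given symbol. For the interaction they were the 5 smallest p-values (log2 CPM of at least 1), and for each of the 40 lists up to 6 passing members per direction by p, or the most abundant where none passed. Other members were chosen after their values were seen, most of them for making no call, for changing without a library or to complete a family. The members and lists were chosen with earlier results of these data known. Some genes that these rules name are not reported here by name or in the figures of named genes and receptors, and stay in the counts of lists. Of 597 list genes 587 were tested.

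The library numbers in the titles recur across regions within a genotype. Deviations from the group mean, correlated over 15799 genes, were 0.25 between same-numbered knockout and 0.18 between same-numbered wild-type libraries, over the bound of 0.1 for treating numbers as pairs. With 2 libraries a group these are 2 values, and no label says what a number marks. Between genotypes, wild-type cortex 2 with knockout hippocampus 2 had 0.26, as large as the values within a genotype. Knockout cortex 2 with wild-type hippocampus 2 had -0.00489. The correlations therefore cannot show that a number marks a mouse. Values from the fit with the number as a block are given where they change the call of a named gene or a list's count.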

Additional observations from a re-analysis of the deposited data

Results flagged for a closer look

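A library far from the other 3 of its region was flagged in 9 of 80 groups of list scores and in 8 of 70 groups of single genes, and chance flags about 1 in 20 groups. Knockout cortex 2 accounted for most. Its score (mean log2 CPM of a list relative to the 8 libraries) was 0.42 for CA2 pyramidal and mossy cells, where the other cortical libraries lay at -0.66 to -0.52, 0.743 for interneurons, 1.45 for Cajal-Retzius cells, 1.66 for thalamic neurons, 0.747 for serotonin, dopamine and adrenergic receptors and 0.168 for neurotrophins. For cortical upper layers it was lower than the others, at 0.567 against 0.92 to 0.99.

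Among single genes, knockout cortex 2 was the highest cortical library for Pkp2 at 9.97 CPM, Dsp at 6.19, Slc9a4 at 2.08, Npy2r at 10.8 and Ndst4 at 26.5 CPM. All 5 genes were higher in hippocampus.

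Outside that library, wild-type cortex 3 scored 0.0984 for potassium and HCN channels, below 0.15 in the others, and wild-type hippocampus 3 scored 0.084 for muscarinic and nicotinic receptors, above the other hippocampal libraries. Mapk6 was lowest in knockout hippocampus 1 at 38.3 CPM, Arhgap32 highest in wild-type cortex 2 at 1094 CPM (1090 to 3 digits) and Sowahb highest among hippocampal libraries in knockout hippocampus 2 at 6.2 CPM.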

How the results depend on the processing

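Counts are of genes higher and lower in hippocampus. With the replicate block (library numbers as pairs) 1233 and 1487 genes passed, 2472 of them shared with the 2800 of the fit without it, and 679 and 713 at least 2-fold. The block ended no named call except those given in the report. Library quality weights (limma voom) gave 3379 and 3403, or 1002 and 1252 at least 2-fold. The knockout libraries alone gave 0 and 0 in edgeR, with 2585 genes at an unadjusted p under 0.05 in 4 libraries, and 0 and 0 at least 2-fold. Leaving out single libraries gave 716 to 2898 higher and 858 to 2831 lower, 462 to 923 and 499 to 1158 at least 2-fold, and 0 to 2463 genes for the interaction, where DESeq2 gave 5. Other tools, filters, scaling, all 14 libraries, no genotype term and the wild-type libraries alone kept all 4 counts within 1.5 times. Of values of named genes under these alternatives 619 kept direction and side of the threshold, 46 missed the threshold (35 of them with the knockout libraries alone, 10 of the others Ndst4) and 0 reversed. These genes were chosen for small p or large change with all 8 libraries. A pass without knockout cortex 2 was also required of them, so that part of the tally was fixed in advance. With 2 libraries for each region and genotype, small differences, low-count genes and the interaction were the least well measured.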

Other observations

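Several hippocampal and cortical genes differed again in the cerebellum (median of its 6 libraries). Il16 was at 286 CPM there and Homer3 at 76.2 CPM, both above their hippocampal levels, while Lct, C1ql2, Npy2r and Fibcd1 were at 0.627, 0.235, 0.34 and 0.951 CPM. Among genes lower in hippocampus, Rora was at 510 CPM, Mapk6 at 129 CPM and Sowahb at 34.8 CPM in the cerebellum, above their cortical means, and Dkkl1 at 0.0848 CPM and Kcnh4 at 0.471 CPM were below their hippocampal means.

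The desmosomal genes Dsp and Pkp2 varied differently among hippocampal libraries. Dsp ranged from 46.9 to 141 CPM and Pkp2 from 50.3 to 62.2 CPM. Choroid plexus transcripts of wild-type hippocampus 2 summed to 1722 CPM, and those of knockout cortex 2 to 1073 CPM.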
